A study of Homo sapiens with 8 samples.

Results

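Loss of the microRNA mir-200c was examined in SK-BR-3, a human breast cancer cell line known for its many copies of the receptor gene ERBB2, in 2 knockout clones, each set against the wild-type cells of its own experimental set. The comparison uses 4 of the 8 libraries of the series: wild type and mir-200c knockout clone 11 in set 1, and wild type and mir-200c knockout clone 29 in set 2. The other libraries are mir-141 knockout clones 23 and 10 and double knockout clones 55 and 61, and those of set 1 are given beside clone 11 where they help to read it. The knockouts were made with TALENs, engineered nucleases that act in pairs at a selected genomic site. Each knockout library is 1 clone, so clone, set and genotype cannot be told apart within it, and no label names separate cultures. Each of 9245 RefSeq mRNA entries has 1 value per clone, its log2 ratio against the wild-type library of that set, from sequencing of poly(A)-selected RNA. Expression levels and read depth are unknown.

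The mir-200 family consists of short regulatory RNAs that are abundant in epithelial cells. A mature microRNA guides a silencing complex to mRNAs whose 3' untranslated region (3' UTR) pairs with its seed, bases 2 to 8, and such mRNAs are destabilised or translated less. mir-200c and its relatives are best known for repressing ZEB1 and ZEB2, transcription factors that switch off epithelial genes, and several genes of the actin cytoskeleton. ZEB1 and ZEB2 were not analysed here.

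The mature RNAs of the mir-200c/141 cluster are shown because the site classes used throughout follow from their seeds, which are in capitals (RefSeq, GRCh38.p14, plus strand, 5′ to 3′). mir-200c-3p lies at chr12:6963742-6963764 and mir-141-3p at chr12:6964155-6964176.
mir-200c-3p: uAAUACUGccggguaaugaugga
mir-141-3p: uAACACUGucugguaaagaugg
Counted from 1 at the 5′ end of mir-200c-3p, mir-141-3p differs from it within the seed by U4C. The 8-base 3' UTR site of mir-200c-3p reads CAGTATTA, which pairs with bases 2 to 8 and ends in an A. A 7-base site lacks either that final A or the base opposite base 8 of the microRNA. The corresponding 8-base site of mir-141-3p is CAGTGTTA.

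The 2 sets had little in common row by row. Across the 9245 entries the ratios of clone 11 and clone 29 had a Pearson correlation of 0.010 and a Spearman correlation of 0.020, a description over entries that share no library. Of 157 genes above a log2 ratio of 1, a 2-fold excess over wild type, in clone 11 (1.7% of entries), 0 were above 1 in clone 29, where 0.973% of entries were. Of 98 below −1 (1.06%), 1 was below −1 in clone 29 (0.8% of entries), the transporter gene SLC16A5, with −1.90 and −1.24. Set 2 values may stand beside wrong gene names, so set 1 is described first and set 2 is given as listed. The values of each gene in set 1 come from 1 clone and 1 wild-type library, have no replicate and carry no test.

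**Figure D1:**
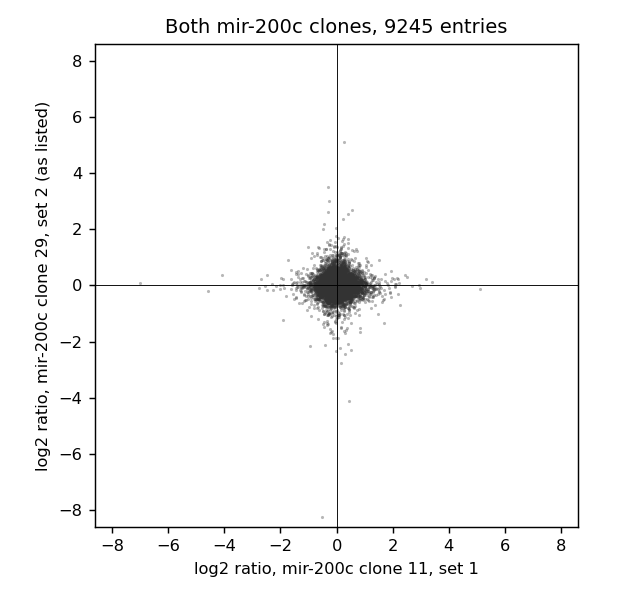
Each point is 1 of 9245 entries. The x axis gives the log2 ratio of mir-200c clone 11 to wild type in set 1 and the y axis that of clone 29 in set 2 as listed. Extreme entries lie along the axes and not along a diagonal, and the Pearson correlation was 0.010.

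In clone 11 the ratios had an SD of 0.43 across entries and a median of −0.017, and 83.0% lay within 0.5 of 0. In clone 29 the SD was 0.36, with 90 entries above 1 and 74 below −1, and these counts do not depend on which name stands beside a value. The members just inside the threshold in clone 11 were KRT14 (1.003) and ODC1 (−1.002), and those just outside were TNF (0.999) and NSMAF (−0.996). Over both sets, limma called 0 of 9245 entries (0%) at an adjusted p under 0.05. The smallest adjusted p was 0.793, and 499 entries had an unadjusted p under 0.05. Leaving out the clone of set 1, the clone of set 2 or the wild type of set 2 gave 1 called entry each: SLC26A11 (−4.08 ± 0.19, SE), HIST1H2BH (−4.41 ± 0.26) and WDR20 (4.97 ± 0.23), with limma adjusted p of 0.0103, 0.0371 and 0.00705. In those fits the lone library is assumed to vary like the other groups. HIST1H2BH has near-identical copies, so its value is uncertain.

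Genes whose 3' UTR holds an 8-base site of mir-200c-3p had higher ratios in clone 11 than genes with no site of mir-200c-3p or mir-141-3p. The 442 genes with such a site had a mean of 0.11 and a median of 0.057, and 53.2% lay above 0. The 5644 genes without any of these sites had a mean of −0.011 and a median of −0.026, and 46.8% lay above 0. Among all entries 48% lay above 0. The mean difference for 8-base sites was 0.12 in clone 11, 0.027 in the mir-141 clone and 0.16 in the double knockout clone of set 1, and these 3 clones share 1 wild type. In the difference between clone 11 and the mir-141 clone, which leaves the wild type out, it was 0.096. In clone 29 as listed it was 0.025.

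Weaker sites went with smaller differences. Genes with a site opposite bases 2 to 8 but no 8-base site (1230 genes) were 0.025 above genes with neither site, and those with nothing more than the site opposite bases 2 to 7 followed by an A (552 genes) were 0.020 above. Genes with 1 site of any kind were 0.036 above, those with 2 sites 0.040 and those with 3 or more 0.096. At the extremes, 10 of the 442 genes with an 8-base site were above 1 (2.26%, against 1.7% of all entries) and 1 was below −1 (0.226%, against 1.06%). Genes with an 8-base site of mir-141-3p lay 0.041 above the genes with neither site in clone 11 and 0.018 above in the mir-141 clone.

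Genes with sites have longer 3' UTRs richer in adenine and thymine, and length moved with the ratios. The median 3' UTR was 3040 bases for 8-base sites and 778 bases for neither site, and the median AT share was 62.8% and 52.0%. Among genes with neither site, the mean ratio was −0.032, 0.0016 and 0.026 in the shortest, middle and longest of 3 classes of 3' UTR length with about equal numbers of genes (up to 761, up to 2069 and above 2069 bases). Within these classes, genes with an 8-base site lay 0.23, 0.22 and 0.046 above the genes with neither site, with 16, 104 and 322 site genes. For all 7- and 8-base sites of mir-200c-3p alone (1182 genes) the mean difference was 0.043, and within the same classes it was 0.056, −0.00012 and 0.028. Genes with a site of the other strand of the hairpin, mir-200c-5p, but none of mir-200c-3p or mir-141-3p lay 0.0027 below the genes with neither site. Genes with a site of mir-122-5p, a liver microRNA, lay 0.025 above, and genes with a site of mir-1-3p, a muscle microRNA, 0.011 below. These control genes are themselves part of the class with neither site, which makes their differences smaller. They hold any 7- or 8-base site, so their values stand beside the 0.043 and not beside those for 8-base sites. No p is given for these differences between gene classes. Exchanging labels within sets gives 4 arrangements for 2 clones and 2 wild types, so an exact permutation test of this kind has a smallest p of 0.5.

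**Figure D2:**
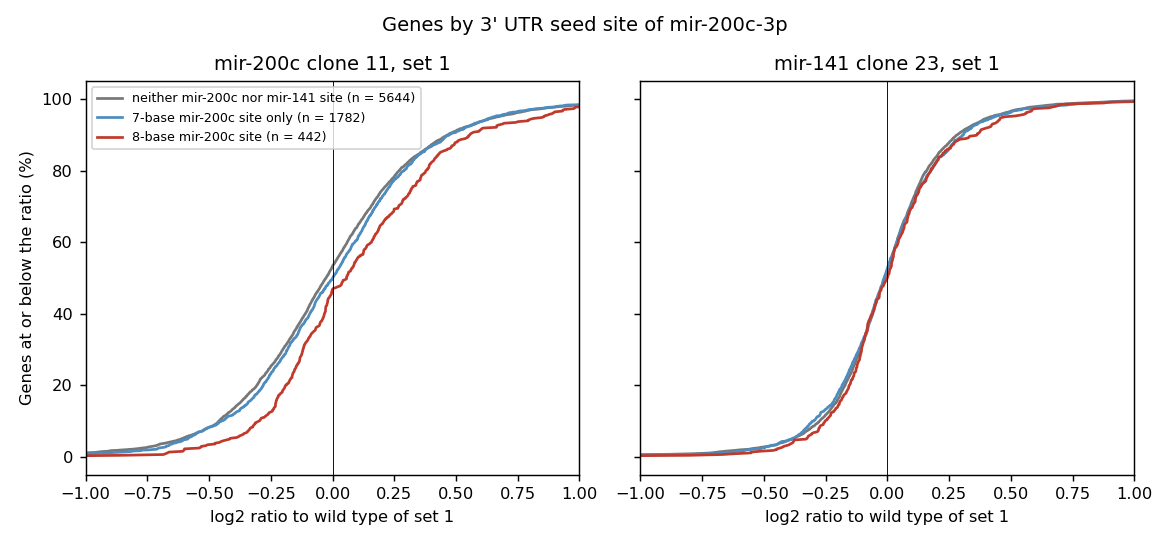
Cumulative share of genes (y axis, percent) at or below a log2 ratio (x axis) in the mir-200c clone (left) and the mir-141 clone (right) of set 1, for genes with an 8-base mir-200c-3p site (442), with 7-base sites only (1782) and with no mir-200c-3p or mir-141-3p site (5644). The curve for 8-base sites lies to the right of the others in the mir-200c clone (median 0.057 against −0.026) and close to them in the mir-141 clone.

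The 12 highest genes with an 8-base site, from OSTM1 at 2.03 to SESN1 at 0.98, also held STK17A, ZSWIM4, JUN, ZNF641, LHFP, VPS13A, SYDE1, PPP1R18, RND3 and TIMP2. OSTM1, a lysosomal membrane protein needed for bone resorption, had 2.03 in clone 11, 0.29 in the mir-141 clone, 1.32 in the double knockout and 0.22 in clone 29 as listed. JUN, a subunit of the AP-1 transcription factor, had 1.83, 0.68, 1.48 and 0.02 in the same order. ZSWIM4 had 1.86, 0.42, 1.71 and −0.11. RND3, which opposes the kinase ROCK1, had 1.08, 0.02, 0.88 and −0.34. TIMP2, an inhibitor of matrix metalloproteinases, had 0.98, −0.18, 0.58 and −0.22. SESN1, a stress-induced sestrin, had 0.98, −0.02, 0.12 and −0.33. STK17A and VPS13A were high in the mir-141 clone too, with 1.65 and 1.10 there beside 1.89 and 1.27 in clone 11. OSTM1, PPP1R18 and SESN1 lie on chromosome 6, whose genes had a median of 0.11 in clone 11, the highest of the chromosomes.

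The sites of some of these genes, and of reported targets described next, are shown with the bases upstream of them, where the rest of the microRNA would lie (GENCODE 29 transcripts, GRCh38, 5′ to 3′ on the mRNA strand, the 8-base site in capitals). SUZ12 is included as a gene with the same site and a ratio of −0.35 in clone 11.
OSTM1, chr6:108044334-108044341, minus strand: attaccccccattgCAGTATTA
OSTM1, chr6:108043112-108043119, minus strand: ttttgagcacctttCAGTATTA
ZSWIM4, chr19:13831136-13831143, plus strand: cccacgtggcatttCAGTATTA
JUN, chr1:58781737-58781744, minus strand: cattcgatctcattCAGTATTA
LHFP, chr13:39343318-39343325, minus strand: atacatttaaaataCAGTATTA
RND3, chr2:150468396-150468403, minus strand: cattatgctttgggCAGTATTA
TIMP2, chr17:78852987-78852994, minus strand: ccgtggacaataaaCAGTATTA
QKI, chr6:163573234-163573241, plus strand: aatgccttggttctCAGTATTA
QKI, chr6:163573302-163573309, plus strand: gactttttttctgaCAGTATTA
CFL2, chr14:34712476-34712483, minus strand: tggtcaacttttttCAGTATTA
CFL2, chr14:34706832-34706839, minus strand: cagggaggtgtctgCAGTATTA
SUZ12, chr17:32000436-32000443, plus strand: tgtgatttgtcatcCAGTATTA

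Of 64 genes listed as reported targets of the seed that mir-200c shares with mir-200b, 36 were measured. In clone 11, 22 had ratios above 0 and 3 above 1, with a median of 0.12. Over all entries 48% lay above 0 and 1.7% above 1, with a median of −0.017. The median of these 36 was 0.0014 in the mir-141 clone and 0.16 in the double knockout. Of the 36, 3 lie on chromosome 6, with a median of 0.88 in clone 11, and 2 on chromosome 22. Without these chromosomes 18 of 31 lay above 0 and 3 above 1 in clone 11, with a median of 0.12. LHFP, a membrane protein of the tetraspan type, had 1.58, 0.88 and 1.78 in the mir-200c, mir-141 and double knockout of set 1. FN1, the matrix glycoprotein fibronectin, had 1.23, 1.17 and 1.12, so it was alike in all clones of that set. QKI, an RNA-binding splicing regulator, had 0.93, −0.19 and 0.67. CFL2, an actin-severing cofilin, had 0.90, 0.10 and 0.75 and its 3' UTR holds 6 sites.

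Some other members of that list also had higher values in the mir-200c than in the mir-141 clone, but not all did. WASF3, with an 8-base site, had −0.03 in clone 11 and 0.38 in the mir-141 clone. MARCKS, an actin-linked membrane protein, had 0.88 in clone 11 and −0.06 in the mir-141 clone. It opens a run of 20 neighbouring genes on chromosome 6 with medians of 0.49 and −0.037 in these clones. CRTAP, which takes part in collagen modification, had 0.79 and 0.04, and the kinase ROCK2 had 0.67 and 0.28. The members with an 8-base site (19 genes) had a median of 0.21, with 13 above 0, and those with 7-base sites only (12 genes) had 0.0080, with 6 above 0. Not all members with an 8-base site were high: SUZ12, a Polycomb subunit, had −0.35, KLF9 had −0.26 and WASF3, USP25, NOTCH1 and FHOD1 lay between −0.03 and −0.01. VEGFA, a blood vessel growth factor with a 7-base site, was lowest of the list at −0.56. In clone 29 as listed, 17 of the 36 were above 0, where 47.9% of all entries were. Of 18 measured genes reported for the seed shared by mir-141 and mir-200a, 7 were above 0 in clone 11, with a median of −0.043.

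**Figure D3:**
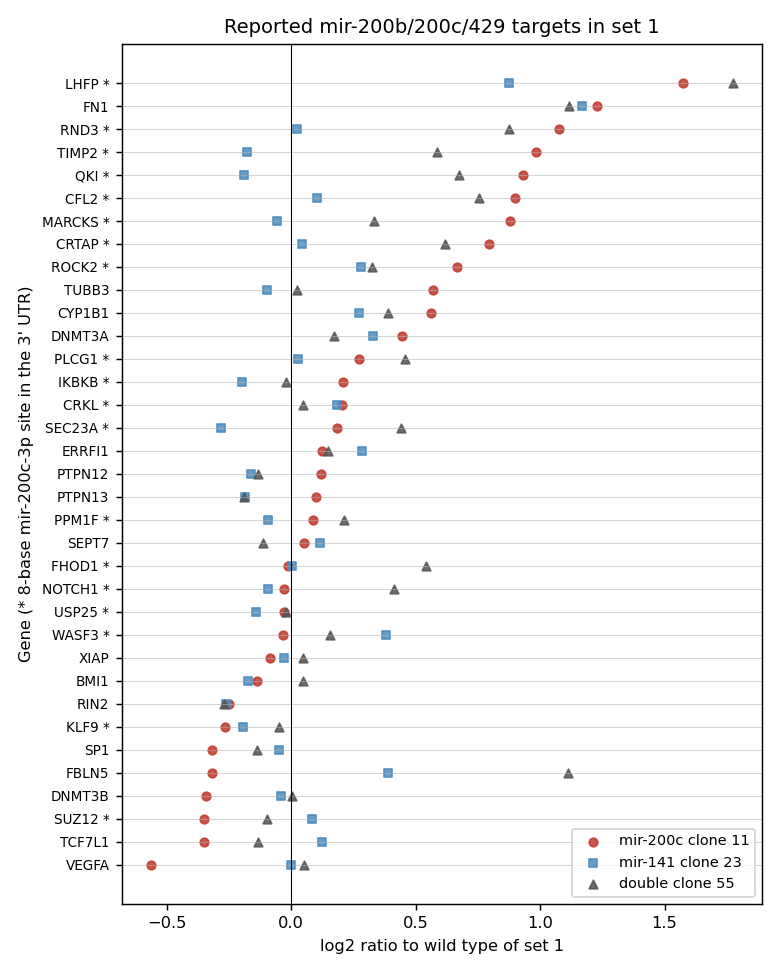
Log2 ratios to the wild type of set 1 (x axis) of 35 of the 36 measured reported targets of the mir-200c seed (y axis, ordered by clone 11, a star marking an 8-base mir-200c-3p site) in the mir-200c clone (circles), the mir-141 clone (squares) and the double knockout clone (triangles). LHFP is highest at 1.58 in the mir-200c clone and VEGFA lowest at −0.56. RND3, TIMP2, QKI, CFL2 and MARCKS lie far to the right of their mir-141 values. QKI and MARCKS are genes of chromosome 6, which was high as a whole in clone 11.

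Of the 30 highest genes of clone 11, 12 had a mir-200c-3p site and 4 an 8-base site. Among all 9245 entries, 442 had an 8-base site and 1782 had 7-base sites only. NT5E, the ecto-enzyme CD73 that makes adenosine (chr6:85449584-85495791), had 3.39, 10.5-fold above wild type, and no site. MYL9, the regulatory light chain of non-muscle and smooth muscle myosin, had 3.20, and it had 0.79 and 3.01 in the mir-141 and double knockout clones. KRT17 and KRT16, keratins of basal and stressed epithelium, had 2.20 and 1.74, beside 0.94 and 0.41 in the mir-141 clone. RAB32, a GTPase of lysosome-related organelles, had 2.11 and 0.16. PPP1R14C, an inhibitor of protein phosphatase 1, had 1.94 in clone 11, 0.08 in the mir-141 clone and −0.14 in the double knockout. TAGLN, a smooth muscle actin-binding protein, had 2.08, −0.22 and −0.41, and CST6, a secreted protease inhibitor, had 1.73, −1.05 and −0.15, so these 3 genes were high in clone 11 and not in the double knockout.

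Other genes of this group were the Wnt antagonist DKK1 (1.90), the retinoid-induced RARRES3 (1.78), the kinase TESK2 (1.71), the deubiquitinating enzyme USP35 (2.15), the Golgi protein TMF1 (1.95), the matrix protein PAPLN (2.09) and the lectin-like ZG16 (1.93). Of these, DKK1, USP35, TMF1 and ZG16 also had 1.26, 1.67, 1.65 and 1.33 in the mir-141 clone. TRAF6, WDR20 and GPR110 were similar in the mir-200c and mir-141 clones, with 2.07 and 1.88, 5.11 and 4.76, and 2.20 and 2.07. For such genes, loss of the microRNAs and the level in the 1 wild-type library that these clones share cannot be told apart. In clone 29 as listed, the 30 genes ranged from −0.71 (SYK) to 0.51 (TMF1).

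At the low end, 7 of the 30 genes had a mir-200c-3p site and 0 had an 8-base site. Of all 9245 entries, 442 had an 8-base site and 1782 had 7-base sites only, so few 8-base sites would be found in any 30 genes. TFF1, a secreted trefoil peptide controlled by oestrogen receptor, had −2.17 in clone 11, −0.18 in the mir-141 clone and −0.55 in the double knockout. STS, steroid sulfatase, had −2.03, 0.30 and 0.78, and CPS1, the first enzyme of the urea cycle, had −2.02, −0.31 and 0.29. MFSD7 had −1.91, −0.25 and 0.27 and FABP5, a fatty acid binding protein, −1.50, 0.20 and 0.15. EGR1, an immediate early transcription factor, had −1.45, 0.51 and 0.26. All of these had lower values in clone 11 than in the other clones of the set. FBP1, the gluconeogenic fructose-1,6-bisphosphatase (−7.01), the transcription factor GATA2 (−4.09), the lipocalin APOD (−1.89) and the mucin MUC5B (−1.98) were low in the mir-141 clone too, at −6.08, −2.64, −1.67 and −2.19. PKP1, a desmosomal plakophilin, had −1.53, −0.79 and −1.30, and SEMA4D, a semaphorin, −1.60, −0.80 and −1.39. HIST1H2AM, HIST1H2BH, ORM1 and ORM2 were among the 30 lowest and have near-identical copies, so their values are uncertain. So are those of FAM86B2 and HIST1H2AD among the highest. GSTT1, also among the 30 lowest, was counted as uncertain too and was not placed on a chromosome.

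Of 38 mesenchymal markers, 15 were measured, and 13 of them lay above 0 and 8 above 1 in clone 11, with a median of 1.01, where 48% of all entries lay above 0 and 1.7% above 1. This list, like the others, was chosen with earlier results of these data known. How entries were filtered is unknown, so a bias towards markers that are raised in a clone could not be checked. The same limit holds for other lists measured in part, such as basal (15 of 26), interferon (18 of 34), NF-kB (17 of 30) and integrin genes (24 of 36). In bulk RNA, more cells of a kind and more RNA per cell cannot be told apart. The contractile genes CALD1 and TPM1 had 1.32 and 0.84, beside 0.37 and −0.59 in the mir-141 clone. COL5A1, a fibrillar collagen, had 1.29 and −0.29. TGFBI, an adhesion protein of the matrix, had 0.80, and CNN2, a calponin, 0.47. S100A4 (−0.31) and COL1A1 (−0.41) lay below 0. In clone 29 as listed, 6 of 15 were above 0, against 47.9% of all entries, with a median of −0.065. Of the fibroblast genes, COL5A1, COL5A2 (0.69), FBLN1 (−0.23) and COL1A1 were measured, 4 of 13 on that list. Their part in the result was not tested.

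Genes of the actin cytoskeleton were mostly above 0: 44 of 56 measured, with a median of 0.24 and 5 above 1, against 48% of all entries above 0 and 1.7% above 1. Besides MYL9 those above 1 were the crosslinker FLNA (1.38), non-muscle myosin MYH10 (1.21), the severing protein GSN (1.17) and TMSB4X, which binds actin monomers (1.02). FLNA had 0.37 and 1.08 in the mir-141 and double knockout clones, MYH10 had 0.10 and 0.12 and GSN 0.23 and 0.50. The actin-membrane linker EZR had 0.80, the crosslinker ACTN1 0.77, the formin DIAPH3 0.70 and the focal adhesion protein ZYX 0.72. The lowest were CAPG (−0.74), PFN1 (−0.42) and CAPZA1 (−0.37), which cap filaments or bind monomers. ACTB, the main cytoplasmic actin, had −0.05 and ACTG1 0.44. The median was 0.078 in the mir-141 clone and 0.080 in the double knockout.

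Integrin and matrix adhesion genes lay above 0 in 20 of 24 measured, against 48% of all entries, with a median of 0.20 and 0 beyond 1. ITGB6, a subunit of the receptor that activates TGF-beta, had 0.96, the proteoglycan SDC4 0.92 and the laminin chain LAMB3 0.89, and the lowest were LAMB1 (−0.21) and LAMA5 (−0.18). In the TGF-beta and BMP pathway 18 of 25 were above 0, with a median of 0.23. Among the ligands and antagonists, BMP7 had 1.23 in clone 11, 0.00 in the mir-141 clone and −0.47 in the double knockout, and the BMP antagonist NBL1 had 1.25, 3.20 and 2.30. The receptor TGFBR1 had 0.64 and the signal transducers SMAD3 and SMAD2 had 0.82 and 0.49. ID2, a target of BMP signalling, had −1.44, −0.59 and −0.77.

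Transcription factors and partners of the epithelial to mesenchymal transition showed no common direction, with 7 of 16 above 0, against 48% of all entries, and a median of −0.035. SOX4 had 0.99 in clone 11 and −0.05 in the mir-141 clone, and SNAI1, a repressor of E-cadherin, had −0.85 and −0.18. The splicing factors ESRP1 and ESRP2, which keep epithelial isoforms, had −0.18 and −0.34. Epithelial adhesion and junction genes had a median of 0.045, with 23 of 35 above 0. CLDN1, a claudin of tight junctions, stood out with 1.53, beside −0.01 and 2.04 in the mir-141 and double knockout clones. CRB3, a polarity protein, had 0.68 and MARVELD3 0.64, and MARVELD2 (−0.50) and DSG2 (−0.46) were lowest.

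Of 26 basal breast markers, 15 were measured, and 14 of them lay above 0, against 48% of all entries, with a median of 0.32. After KRT17, the highest were ANXA3 (1.63) and KRT14 (1.00), and CRYAB (−0.40) was the single member below 0. Luminal and oestrogen receptor genes lay above 0 in 7 of 18, with a median of −0.077. TFF1 was followed by CA12 (−0.58), the luminal factor SPDEF (−0.50) and XBP1 (−0.45). FOXA1, a pioneer factor of luminal cells, had −0.39 and GATA3 0.16. The luminal keratins KRT8, KRT18 and KRT19 had 0.16, 0.24 and 0.22, EPCAM 0.06, ERBB2 −0.14 and its neighbour in the amplicon GRB7 −0.03. All of these defining markers of the line are among the measured entries, but ratios give no level. Of the ERBB2 amplicon and receptor signalling list, 10 of 23 were above 0, with PIK3CA highest (0.58) and PPP1R1B lowest (−1.24).

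**Figure D4:**
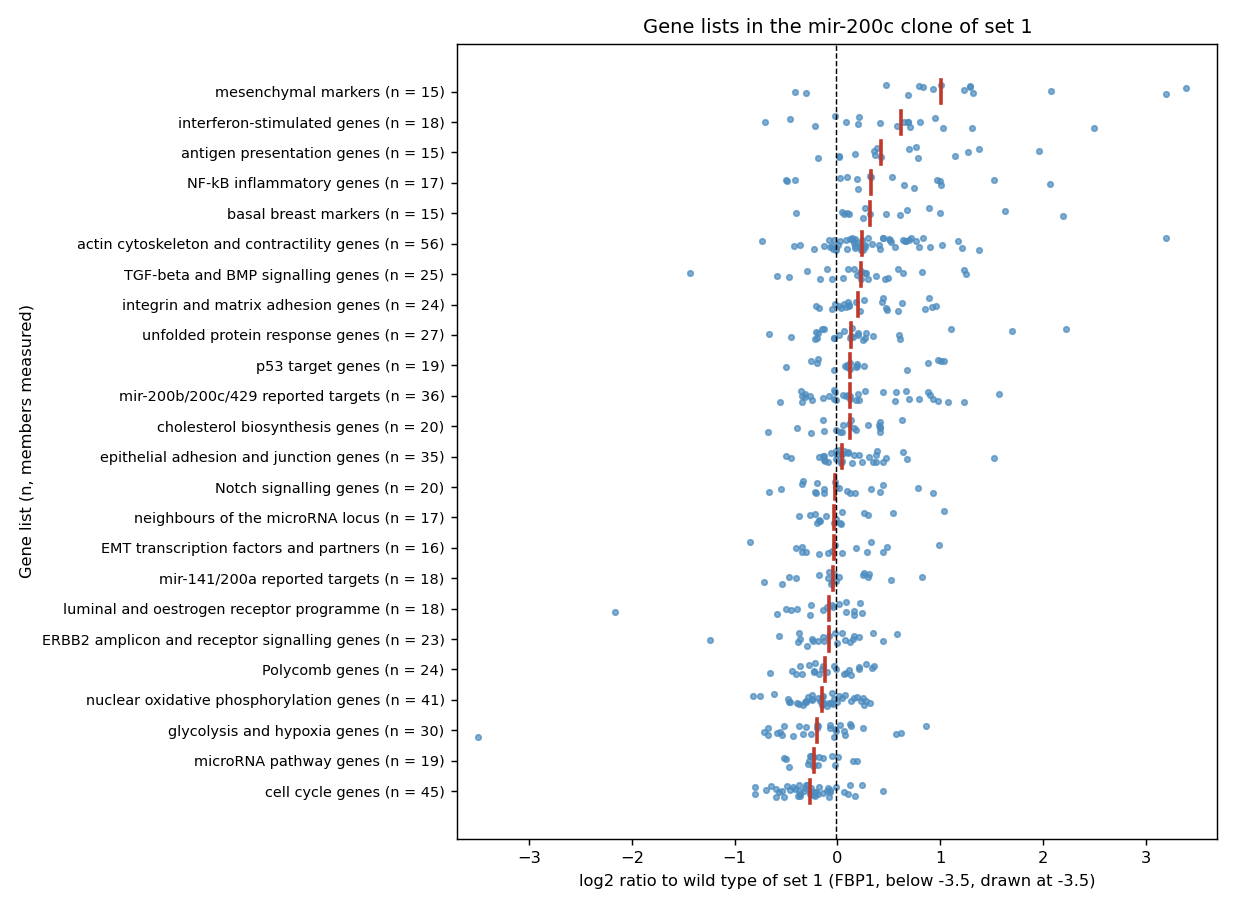
Log2 ratios of mir-200c clone 11 to the wild type of set 1 (x axis) for the members (points) and medians (vertical bars) of 24 gene lists (y axis), with a dashed line at −0.017, the median of all entries. Among measured members, mesenchymal markers (15 of 38 measured) have the highest median (1.01) and cell cycle genes the lowest (−0.27).

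Interferon-stimulated genes lay above 0 in 14 of 18, against 48% of all entries, with a median of 0.61 in clone 11, 0.098 in the mir-141 clone and 0.093 in the double knockout. The guanylate-binding proteins GBP1 and GBP2 had 2.50 and 1.31, beside −0.01 and −0.08 in the mir-141 clone and 1.68 and 0.87 in the double knockout. OAS3, a sensor of double-stranded RNA, had 1.03, the ubiquitin-like ISG15 0.95 and IFIT1 0.81. The lowest were BST2 (−0.70) and IFITM2 (−0.46). IFIT1 and IFITM2 have close relatives in sequence and are uncertain. Among the transcription factors of the pathway, IRF1 had 0.70, IRF7 0.69 and STAT2 0.42.

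Antigen presentation genes lay above 0 in 14 of 15, with a median of 0.42 and 4 above 1, against 48% of all entries above 0 and 1.7% above 1. Those above 1 were PSMB8 of the immunoproteasome (1.97), TAP1, which carries peptides into the endoplasmic reticulum (1.14), and the class I heavy chains HLA-C (1.38) and HLA-B (1.27), the last 2 uncertain because class I genes are alike in sequence. Of the 15, 8 lie on chromosome 6, with a median of 0.97. Without chromosomes 6 and 22, 6 of 7 members lay above 0, with a median of 0.17 and 0 above 1. Genes of chromosome 6 as a whole had a median of 0.11.

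NF-kB inflammatory genes lay above 0 in 14 of 17, against 48% of all entries, with a median of 0.33. TRAF6 was highest, then LCN2, an iron-sequestering lipocalin (1.53, with 0.64 and 2.48 in the mir-141 and double knockout clones), and CD40 (1.01, −1.44 and −0.10). The chemokine CCL2 had 0.97, the feedback inhibitor TNFAIP3 0.75 and TNIP1 0.65. TNFAIP2 (−0.50), IER3 (−0.49) and BCL3 (−0.42) lay below 0. Of the 17, 5 lie on chromosome 6, with a median of 0.53. Without chromosomes 6 and 22, 10 of 12 lay above 0, with a median of 0.32. Stress-related lists were uneven. In the unfolded protein response 17 of 27 were above 0, with a median of 0.13, led by the chaperone DNAJC12 (2.22), ATF3 (1.70) and PPP1R15A (1.11), while SDF2L1 had −0.67. Among p53 targets 14 of 19 were above 0, with a median of 0.13. BBC3, GADD45B, SESN1 and CDKN1A had 1.03, 1.01, 0.98 and 0.88, while MDM2 had 0.13. SESN1 and CDKN1A lie on chromosome 6, and without chromosomes 6 and 22 the p53 targets had 12 of 17 above 0, with a median of 0.12.

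Cell cycle genes were the list with the most members below 0: 39 of 45, with a median of −0.27 and 0 beyond 1 in either direction. Among all entries 52% lay below 0. The spindle checkpoint kinase BUB1 and the mitotic kinesin KIF20A had −0.80 each, the mitotic kinases AURKA and PLK1 −0.70 and −0.65 and UBE2C, a ubiquitin-conjugating enzyme of anaphase, −0.59. CENPE (0.44), CDK2 (0.24) and RRM2 (0.17) were highest. The median was −0.079 in the mir-141 clone, −0.23 in the double knockout and −0.096 in clone 29 as listed, where 17 of 45 lay above 0.

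Genes of the microRNA pathway itself lay below 0 in 16 of 19, against 52% of all entries, with a median of −0.23. DICER1 and DROSHA, which process microRNA precursors, had −0.25 and −0.24, the export factor XPO5 −0.27 and AGO2, which holds the mature microRNA, −0.26. TNRC6C, a partner of AGO proteins, was lowest (−0.52) and DCP2, a decapping enzyme, highest (0.19). The median was 0.023 in the mir-141 clone. In Polycomb genes 15 of 24 were below 0, with a median of −0.12, among them EZH2 (−0.41), CBX6 (−0.66) and CBX7 (−0.44), with PHF1 highest (0.36).

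In metabolism, nuclear genes of oxidative phosphorylation lay below 0 in 29 of 41, against 52% of all entries, with a median of −0.15, and NDUFB10 (−0.82), ATP5G1 (−0.75) and SDHB (−0.62) were lowest. Their median was −0.25 in the double knockout. Glycolysis and hypoxia genes lay below 0 in 21 of 30, with a median of −0.20. FBP1 was lowest, then the lactate transporter SLC16A3 (−0.71), HK2 (−0.68) and PDK1 (−0.68), while the peptide hormone ADM had 0.86. Cholesterol synthesis genes lay above 0 in 14 of 20, against 48% of all entries, with a median of 0.12, against −0.11 in the mir-141 clone. MVD had 0.63 and HMGCS1 0.42 in clone 11, and EBP (−0.67) and SREBF2 (−0.40) were lowest. Notch pathway genes had 9 of 20 above 0 and a median of −0.018, with the target HEY1 at 0.93, the receptor NOTCH3 at 0.79 and the modifying enzyme LFNG at −0.66.

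Genes next to the microRNA locus on chromosome 12 had a median of −0.033, with 7 of 17 above 0, against 48% of all entries. SPSB2 had 1.03 in clone 11, 0.21 in the mir-141 clone and 0.11 in the double knockout, and ING4 had 0.55, −0.14 and 0.31. PTPN6, which lies just before the locus, had 0.30, and GAPDH was lowest at −0.37. Mature or precursor mir-200c was not analysed here, so these libraries do not check the knockout. Of blood cell genes, LCP1 (1.05), CD68 (−0.48) and CORO1A (−0.54) were measured, 3 of 12, and of endothelial genes CDH5 (0.73) and ESAM (0.61), 2 of 11. The defining genes PTPRC, PECAM1 and PDGFRB were not analysed here, and the part of such cells was not tested.

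Ratios in clone 11 also followed chromosome. On chromosome 22, 48 of 247 genes lay above 0 (19.4%, against 48% of all entries), with a median of −0.34. The median there was −0.097 in the mir-141 clone, −0.29 in the double knockout and −0.033 in clone 29 as listed. XBP1, SREBF2 and SDF2L1, named above as low members of their lists, lie on this chromosome. Runs of 20 neighbouring genes were picked for extreme medians in clone 11, so their low or high values there follow from that choice. In the lowest run of this chromosome, from TXN2 to GCAT (chr22:36467036-37817176, GRCh38), 20 genes lay below 0, against 52% of all entries. Among them were the GTPase RAC2 (−1.40), the linker histone H1F0 (−1.17) and the galectin LGALS1 (−0.90). Chromosome 6 was highest, with 277 of 467 genes above 0 and a median of 0.11, beside −0.0025 and −0.015 in the mir-141 and double knockout clones. Its highest run of 20 genes, from PEX3 to PPP1R14C (chr6:143450807-150250357), had a median of 0.51, with RAB32 and ULBP3 (1.34), a ligand of a natural killer cell receptor, and UTRN (1.25), a relative of dystrophin. Chromosome 6 holds 467 of the 9245 entries, and 7 of the 30 highest genes lie on it, NT5E and OSTM1 among them.

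The lowest run of 20 genes lay on chromosome 14, from GMPR2 to ARHGAP5 (chr14:24232422-32159728), with a median of −0.61. Of the 30 lowest genes 4 lie in it: DTD2 (−2.49), SCFD1 (−1.92), HEATR5A (−1.81) and NUBPL (−1.72). The run had a median of −0.58 in the mir-141 clone and −0.49 in the double knockout, so all clones of set 1 were low there relative to their shared wild type. Without chromosomes 6 and 22, genes with an 8-base mir-200c-3p site (407 genes) still lay 0.11 above genes with neither site, the mesenchymal median was 1.01 and the actin median 0.24.

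**Figure D5:**
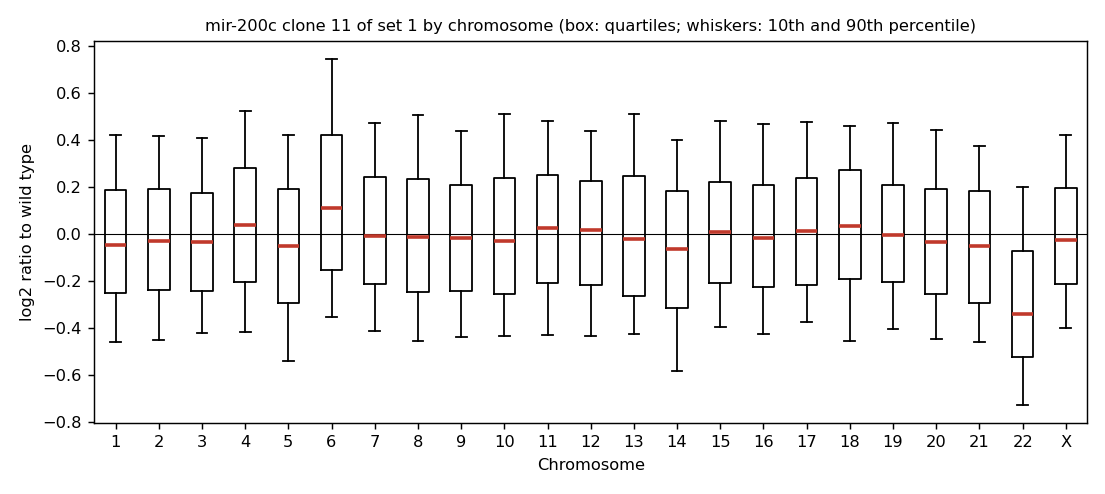
Log2 ratio of mir-200c clone 11 to the wild type of set 1 (y axis) for genes of each chromosome (x axis). Boxes give quartiles, red bars medians and whiskers the 10th and 90th percentiles. Chromosome 22 is lowest (median −0.34) and chromosome 6 highest (0.11).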

How the data were processed

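Messenger RNA of SK-BR-3 cells was enriched with oligo(dT), fragmented and sequenced (HiSeq), per the labels' protocols. TopHat2, of unstated version, and the build GRCh37.p10 are named in the submitters' processing notes. The authors deposited log2 ratios, formed within each set; the steps of counting, scaling and filtering are not given in the sources used here. Depth is unknown, so no interval, filter or weight by level was possible. Columns of other samples numbered 0. The comparison, gene lists and seed classes were chosen with earlier results of these data known.

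Each wild type was set to 0, which makes the set a block: the labels name the shared set, and this pairs the libraries. A linear model of all 4 groups (3 residual degrees of freedom) was fitted with limma 3.58.1 in R 4.3.3, with Benjamini-Hochberg adjustment over all entries, and was tested on simulated data. Its p-values measure the spread between sets, which may be technical, and combine different genes if set 2 names are wrong. Of the entries, 9239 were matched to GENCODE 29 (GRCh38), 9009 of them by accession, and 9217 had a 3' UTR, of which the longest was searched for sites. All coordinates are GRCh38. Genes named were the 30 highest and 30 lowest of clone 11, the 12 highest with an 8-base site, reported targets, list members beyond 1, the 3 highest and 3 lowest of each list, neighbours of the locus and markers of the line. ZYX, ACTN1, DIAPH3, EZR, ACTB, ACTG1, TGFBI, CNN2, SMAD2, TGFBR1, ESRP1, FOXA1, IRF1, IRF7, STAT2, IFIT1, TNFAIP3, TNIP1, UBE2C, EZH2, MDM2, DICER1, DROSHA, XPO5, AGO2, CDKN1A, RAC2, H1F0, LGALS1, ULBP3, UTRN and other members outside this rule were chosen after their values were seen. The values of a few genes that the rule or a list holds are not reported here, and counts and medians include them. Thresholds, scaling, site definitions, left-out libraries and left-out chromosomes were varied. The use of set 2 for site genes, and for 8-base sites and lists the split by 3' UTR length or removal of chromosomes 6 and 22, were chosen after seeing the data.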

Additional observations from a re-analysis of the deposited data

How the results depend on the processing

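In clone 11 a threshold of 0.5 gave 837 genes above and 732 below, and a threshold of 2 gave 18 and 13. The limma count was 0 after median centring, with a common spread, with robust moderation and with the mir-200c ratios alone. A limma fit of the same ratios with no replicate block also gave 0 calls (551 entries at an unadjusted p under 0.05). Those ratios were already formed within each set, so this fit cannot show what the pairing changes. Leaving out 1 library in turn gave 0 to 1 calls.

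For genes with mir-200c-3p sites and no mir-141-3p site, the mean difference of 0.043 became 0.1499 with 8-base sites only, 0.05595 with the shortest 3' UTR, 0.02474 as a difference of medians, 0.03011 without chromosomes 6 and 22, and 0.02948 in set 2 as listed. By class of 3' UTR length it was 0.05621, −0.0001153 and 0.02824, and for all genes with an 8-base site 0.227, 0.2172 and 0.04608, from shortest to longest; the cause was not tested.

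As a mean of the members in place of the median, reported targets had 0.266, epithelial genes 0.1417, luminal genes −0.2215, glycolysis genes −0.3695 and the unfolded protein response 0.2262. The sign turned for regulators of the epithelial to mesenchymal transition (0.01031), Notch genes (0.02448) and neighbours of the locus (0.0297). Median centring gave −0.0182 for those regulators, 0.06181 for epithelial genes and −0.001527 for Notch genes, and without chromosomes 6 and 22 the regulators had −0.06954.

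In set 2 as listed, the median had the other sign for reported targets of the mir-200c seed (−0.004695) and of the mir-141 seed (0.007054), mesenchymal (−0.0653), TGF-beta and BMP (−0.03181), Polycomb (0.01522), basal (−0.1115), interferon (−0.02694), antigen presentation (−0.03928), NF-kB (−0.0586), p53 (−0.1123), glycolysis (0.02797) and cholesterol genes (−0.1606) and neighbours of the locus (0.01282). It kept its sign for regulators of the transition (−0.04624), epithelial (0.02388), actin (0.04987), integrin (0.005414), Notch (−0.007997) and microRNA pathway genes (−0.04498). The same held for luminal (−0.004628), ERBB2 (−0.1532), cell cycle (−0.09638), oxidative phosphorylation (−0.0953) and unfolded protein response genes (0.02591). Signs are taken against 0, while the median of all entries in clone 29 was −0.013. The medians of luminal genes, Notch genes and reported targets of the mir-200c seed lie between −0.013 and 0.

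Taken against the mir-141 clone, which leaves out the shared wild type, the sign turned for FAM86B2 (−0.3161), HIST1H2AD (−0.3851), BASP1 (1.058), MUC5B (0.2167) and NCCRP1 (0.3577). Each gene value of set 1 rests on 1 clone and 1 wild-type library of unknown depth, so differences within the spread of such a pair cannot be seen.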
